A study of Mus musculus with 16 samples.

Results

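The Cyp2a and Cyp2b gene cluster was examined as the 1.23 Mb of chromosome 7 from 26600000 to 27830000 (NCBI37/mm9), which holds Cyp2b10 near 26.68 Mb and Cyp2a5 near 27.62 Mb. The acetylated regions inside this window were taken from the H3K27Ac peaks of all 15 samples, with overlapping or adjoining peaks merged. The window held 64 of the 56941 merged regions of chromosomes 1 to 19 and X. They are all the regions that lie in the window. The 7 genes the cluster was examined for are Cyp2b10, Cyp2b13, Cyp2b9, Cyp2a4, Cyp2a5, Cyp2a22 and Cyp2a12.

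H3K27Ac ChIP-seq had been carried out on 15 mice, 5 per group, with 1 peak list per animal. WT livers were from Mdr2-WT mice and HCC nodules from Mdr2-KO mice, aged 14 to 19 months when sampled, and inflamed livers were from Mdr2-KO mice of 7 to 8 months. Mdr2 (Abcb4) is the canalicular transporter of phospholipids into bile, and mice without it develop biliary inflammation followed by liver tumours. The strain of all groups is labelled FVB.129P2, whereas the methods of the study name FVB/NJ for WT mice. All animals, WT mice included, had received clodronate liposomes, which deplete macrophages, by tail injection 48 h before collection (50 μg per g of body weight per the labels). The Mdr2 loss is not restricted to a cell type. Inflamed livers were younger than both other groups, so that age and disease stage cannot be told apart in comparisons with them. Males and females were used, and the sources do not say which animal was which.

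The cytochrome P450 enzymes of the CYP2A and CYP2B subfamilies are haem monooxygenases of the endoplasmic reticulum that oxidise drugs, steroids and other lipophilic compounds in hepatocytes. Cyp2b10 is the classical target of the constitutive androstane receptor CAR (Nr1i3), the nuclear receptor that induces detoxification genes on exposure to phenobarbital-like compounds. In mouse liver Cyp2b9, Cyp2b13 and Cyp2a4, a steroid hydroxylase, are known for higher expression in females, while Cyp2a5 is the coumarin hydroxylase that metabolises nicotine. Acetylation of lysine 27 of histone H3 marks promoters and enhancers in use.

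The genes of the cluster arose by duplication, and the promoters of some pairs are nearly the same, which bears on how well short reads can be placed there. The mouse reference table of RefSeq (GRCm38.p6) held all 7 genes, in the order Cyp2b10, Cyp2b13, Cyp2b9, Cyp2a4, Cyp2a5, Cyp2a22, Cyp2a12, with the vomeronasal receptor gene Vmn1r184 between Cyp2b9 and Cyp2a4, and Nlrp9c, Nlrp4a, Nlrp9a, Vmn1r185, Cyp2b23, Cyp2b19 and Cyp2g1 between Cyp2a4 and Cyp2a5. The 250 bases before the start of 5 of them are printed, from RefSeq GRCm38.p6, a different build from that of the peaks, so that they were not placed on the peaks. Capitals mark the bases at which the 2 genes of a pair differ.
Cyp2b10, chr7:25897408-25897657, + strand: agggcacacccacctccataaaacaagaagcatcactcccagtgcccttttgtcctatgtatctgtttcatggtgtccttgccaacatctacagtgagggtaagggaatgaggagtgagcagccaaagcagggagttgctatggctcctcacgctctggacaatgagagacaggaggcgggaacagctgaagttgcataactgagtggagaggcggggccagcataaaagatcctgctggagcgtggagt
Cyp2b13, chr7:26061245-26061494, + strand: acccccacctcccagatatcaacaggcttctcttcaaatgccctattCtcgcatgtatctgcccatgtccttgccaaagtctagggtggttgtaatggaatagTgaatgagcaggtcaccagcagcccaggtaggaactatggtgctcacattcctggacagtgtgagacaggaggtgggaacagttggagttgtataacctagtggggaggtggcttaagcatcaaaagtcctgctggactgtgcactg
Cyp2b9, chr7:26173159-26173408, + strand: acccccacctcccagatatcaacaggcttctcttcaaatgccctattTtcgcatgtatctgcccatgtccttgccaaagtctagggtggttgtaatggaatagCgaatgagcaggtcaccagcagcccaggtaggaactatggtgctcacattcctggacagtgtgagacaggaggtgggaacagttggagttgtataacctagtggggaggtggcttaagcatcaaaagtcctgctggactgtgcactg
Cyp2a4, chr7:26306942-26307191, + strand: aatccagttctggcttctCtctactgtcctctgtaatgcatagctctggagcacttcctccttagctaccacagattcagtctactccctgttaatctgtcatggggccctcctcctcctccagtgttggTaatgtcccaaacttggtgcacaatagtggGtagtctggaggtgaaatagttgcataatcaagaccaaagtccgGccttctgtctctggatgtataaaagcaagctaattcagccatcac
Cyp2a5, chr7:26835089-26835338, + strand: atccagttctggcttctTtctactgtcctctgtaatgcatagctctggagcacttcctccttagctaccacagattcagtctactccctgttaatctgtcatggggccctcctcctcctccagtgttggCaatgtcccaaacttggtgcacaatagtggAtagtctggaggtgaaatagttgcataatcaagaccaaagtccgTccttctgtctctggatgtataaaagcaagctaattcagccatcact

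Cyp2b13 and Cyp2b9 differed at 2 of 250 aligned bases (99.2% identity) and Cyp2a4 and Cyp2a5 at 4 of 249 (98.4%). Cyp2a22 and Cyp2a12 were 88.8% identical, and Cyp2b10 was 71.7% identical to both Cyp2b13 and Cyp2b9. The reads were 36 bases long. Of the 265 words of 36 bases in a window of 300 bases around the start (250 before and 50 after), Cyp2b13 shared 193 (72.8%) with Cyp2b9, Cyp2a4 shared 113 (42.6%) with Cyp2a5, and Cyp2a22 shared 19 (7.17%) with Cyp2a12. Cyp2b10 shared 0 with any of the other 6 genes. How reads that match more than 1 place were treated is not given in the sources used here, so that acetylation at the start of Cyp2b13, Cyp2b9, Cyp2a4 and Cyp2a5 is less certain than at Cyp2b10. In the same 300 bases, searched on both strands, AGGTCA, a part of nuclear receptor elements, matched 1 time each in Cyp2b13, Cyp2b9, Cyp2a4 and Cyp2a5. It matched 0 times in Cyp2b10, Cyp2a22 and Cyp2a12, and it was present in 16.3% of 32851 mouse promoters of this length. AGTTCA (14% of promoters), AGGTCA followed after 4 bases by AGTTCA (a DR4 arrangement, 0% of promoters) and CAAAGTCCA (0.475%) had 0 matches in the 7 genes. This exact DR4 was absent from all 32851 promoters, so that its absence from the 7 genes tells nothing about them. Sequence outside these 300 bases was not searched. TGACCT, also searched, is the opposite strand of AGGTCA.

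In the lists of all animals the window held 498 peaks, of which 32 had a score of 3100 or more, the value shared by the strongest peaks of the lists. The covered length, meaning the base pairs of the window under peaks, was used to compare animals, because the files hold positions and scores but no read counts and the depth of each library is unknown. WT animal 130748 and HCC animal 124711 stood apart over the genome. The Jaccard index of their merged regions (regions with a peak in both, divided by regions with a peak in either) was 0.717, higher than that of either with any animal of its own group, where it was at most 0.597 for WT 130748 and 0.530 for HCC 124711. The other nodules were also nearest to an animal of another group, with indices of 0.606 to 0.664 against 0.583 to 0.608 for the nearest nodule, and the other WT livers and all inflamed livers were nearest to their own group. The paper left samples out of its principal component plot of these H3K27Ac profiles as outliers, and the figure legend does not name them. Whether WT 130748 or HCC 124711 was among those samples is not stated there. All animals were kept in the main tests here. WT 134501 had 15 peaks on chromosome Y and HCC 124711 had 13, and the other 13 lists had 0. Lists held 26390 to 42736 peaks. The labelled tissue was not checked against markers of hepatocytes, macrophages or bile duct cells, because an annotation of NCBI37/mm9 was not used here.

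No difference between the 3 groups in the covered length of the cluster passed the test, and the WT livers and the HCC nodules each spread over a wide range. In WT livers, peaks covered 35.4 kb in animal 134501, 161 kb in 129296, 163 kb in 130747, 152 kb in 129297 and 39.8 kb in 130748. WT 129296, 130747 and 129297 were close together, and both others lay far below them. In inflamed livers the covered length was 77.6 kb in 148997, 89.4 kb in 148998, 77.9 kb in 149198, 64.8 kb in 149199 and 120.0 kb in 148990. In HCC nodules it was 23.2 kb in 124711, 123 kb in 125278, 46.9 kb in 125279, 78.9 kb in 123206 and 182 kb in 123390, so that the nodules included both the lowest and the highest of the 15 animals. The groups overlapped in every pair, as the plot of covered length by animal shows.

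**Figure D1:**
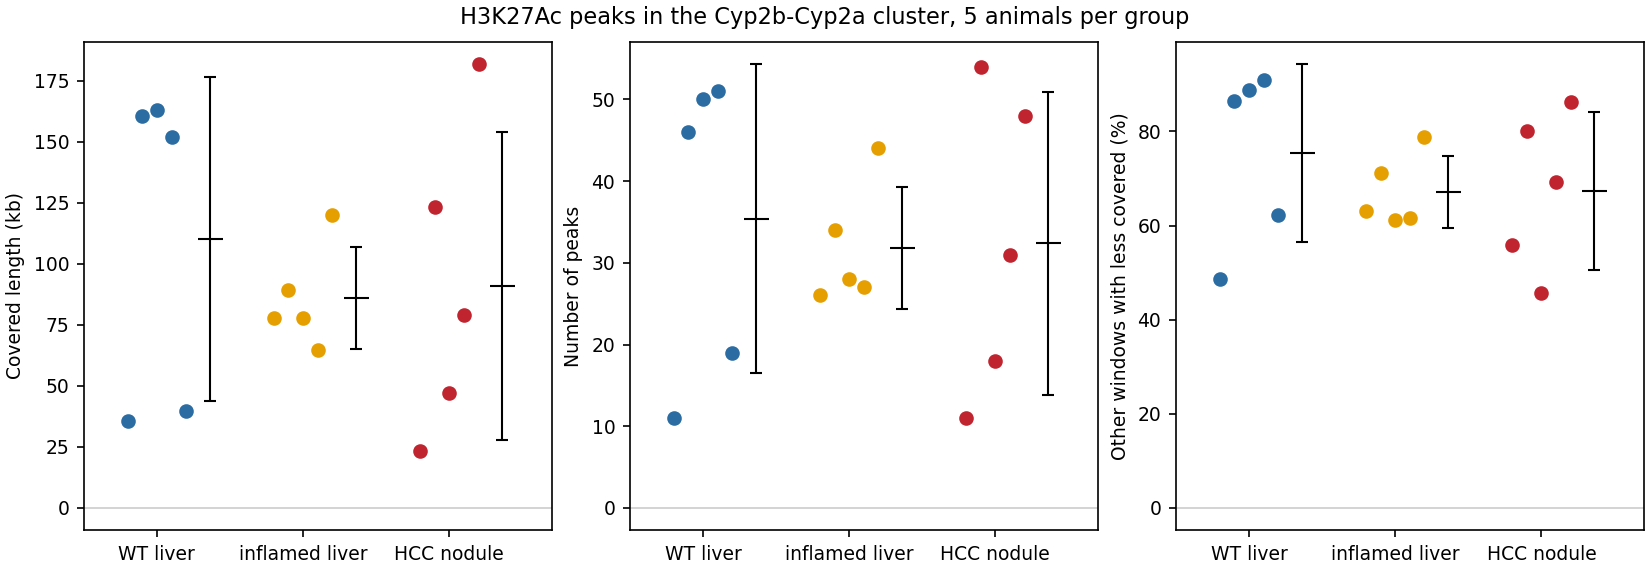
Covered length in kb (left), number of peaks (middle) and the percent of other windows of the genome with less covered length in the same animal (right) for the cluster, with 1 point per animal and a black bar for the mean ± SD of 5 animals. WT livers lie at 35.4 and 39.8 kb or between 152 and 163 kb, inflamed livers between 64.8 and 120.0 kb, and HCC nodules between 23.2 and 182 kb.

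The mean was 110 ± 66.4 kb in WT livers, 86.0 ± 20.9 kb in inflamed livers and 90.9 ± 63.2 kb in HCC nodules (SD, n = 5 each). The difference of inflamed and WT livers was -24.3 kb, smaller in size than the SD of WT livers and larger than that of inflamed livers. It did not pass (exact two-sided permutation test, p = 0.444, Benjamini-Hochberg adjusted p = 0.608 over 1903 windows of the same length). HCC nodules were 4.90 kb above inflamed livers (exact permutation p = 0.865, adjusted p = 1) and their difference from WT livers was -19.4 kb (exact permutation p = 0.675, adjusted p = 0.930). With 5 animals against 5 the smallest possible p is 0.00794. The animals of the groups did not overlap in 25.3% of windows for inflamed against WT livers, in 4.71% for HCC nodules against inflamed livers and in 1.13% for HCC nodules against WT livers, and the cluster was in none of these sets. The comparisons share the animals of a group and are not independent of each other. Peaks come from whole tissue, so that fewer cells carrying the mark and less of the mark per cell cannot be told apart.

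Relative to other windows, the cluster was nevertheless at the low end of the differences from WT livers, for inflamed livers and nodules alike. The difference of inflamed and WT livers was larger in 97.2% of the other windows, and the difference of HCC nodules and WT livers was larger in 97.5% of them. For HCC nodules against inflamed livers 24.0% of the other windows had a larger difference. These are positions in a distribution and not tests. They rank differences in bp, and the cluster had on average more covered length than most windows and a wide spread among WT livers. The distribution of all windows for each comparison shows the cluster left of the bulk in both comparisons with WT livers.

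**Figure D2:**
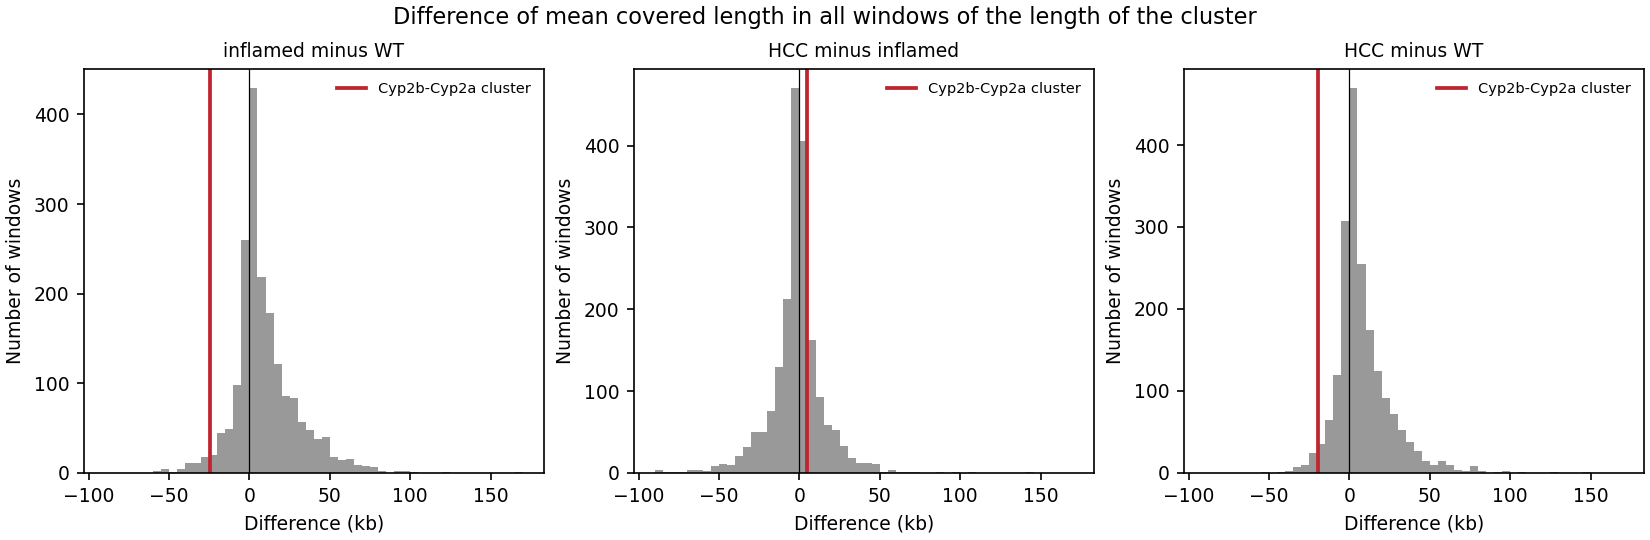
Histograms of the difference of mean covered length in kb over windows of 1.23 Mb across the genome, with the number of windows on the vertical axis, and a red line for the Cyp2b-Cyp2a cluster. The line stands at -24.3 kb for inflamed minus WT, at 4.90 kb for HCC minus inflamed and at -19.4 kb for HCC minus WT.

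The same order was found for the number of peaks, which was 35.4 ± 18.9 in WT livers, 31.8 ± 7.50 in inflamed livers and 32.4 ± 18.6 in HCC nodules (SD, n = 5 each). Single WT livers had 11, 46, 50, 51 and 19 peaks, inflamed livers 26, 34, 28, 27 and 44, and nodules 11, 54, 18, 31 and 48, in the order of animals given for the covered length. No comparison passed (exact permutation p = 0.714 for inflamed against WT livers, 0.976 for HCC nodules against inflamed livers and 0.849 for HCC nodules against WT livers; the lowest adjusted p was 0.803), and the groups overlapped in each, whereas they did not in 37.7%, 3.94% and 1.8% of all windows in these comparisons. As a share of all peaks of an animal, the cluster took 839 ± 481 bp per Mb in WT livers, 585 ± 143 bp per Mb in inflamed livers and 602 ± 360 bp per Mb in HCC nodules (SD, n = 5 each). This share takes the different lengths of the lists into account and gave exact permutation p of 0.278, 0.937 and 0.325 in the same order of comparisons (adjusted p = 0.424, 1 and 0.732). The groups overlapped in share too, and did not in 27%, 8.45% and 3.81% of all windows.

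The animals of a group spread more widely in the cluster than in most windows. The coefficient of variation of the covered length over the 5 animals was 60.3% in WT livers, against a median of 22.4% in the 1609 other windows with a peak in all 15 animals, of which 22 (1.37%) varied at least as much. In inflamed livers it was 24.3% against 10.5%, with 140 windows (8.70%) at least as variable, and in HCC nodules 69.6% against 37.4%, with 101 windows (6.28%) at least as variable. WT animal 134501 had 128 Mb under peaks in all, the median of the 5 WT livers, and its covered length in the cluster was above that of 48.7% of its other windows. In WT animals 129296, 130747 and 129297 the cluster was above 86.6% to 90.9% of the other windows. WT animal 130748 had 109 Mb under peaks, the least of its group, and the cluster stood above 62.3% of its windows. Among nodules, animal 125279 had the most peaks of all animals (42736) and 46.9 kb in the cluster, above 45.6% of its windows.

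Both animals with chromosome Y peaks had the lowest covered length of their group in the cluster, 35.4 kb in WT 134501 and 23.2 kb in HCC 124711, and WT 130748 and HCC 125279, with 0 chromosome Y peaks, had 39.8 and 46.9 kb. The part of sex in the spread was not tested. Without the 2 animals with chromosome Y peaks, an alternative chosen after seeing the data, the difference of inflamed and WT livers was -42961 bp (exact permutation p = 0.159, adjusted p = 0.297) and HCC nodules were 21805 bp above inflamed livers (exact permutation p = 0.468, adjusted p = 0.705). Without WT 130748 and HCC 124711, which resembled each other over the genome, the difference of inflamed and WT livers was -41870 bp (exact permutation p = 0.190, adjusted p = 0.286). For inflamed against WT livers each of these settings leaves out a single animal, WT 134501 or WT 130748. In the other direction, inflamed minus WT livers was -11652, -11043 or -13807 bp without WT 129296, 130747 or 129297. HCC nodules minus inflamed livers was -17858 bp without HCC 123390, -3221 bp without HCC 125278 and -387 bp without inflamed 149199. HCC nodules minus WT livers was -2461 bp without HCC 124711, -8393 bp without HCC 125279, -6754, -6146 or -8909 bp without WT 129296, 130747 or 129297, -38063 or -36973 bp without WT 134501 or 130748, and -42124 bp without HCC 123390. With the window shortened by 100000 bp on each side it was -7567 bp.

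The 3 other windows whose covered length over the 15 animals was most like that of the cluster were on chromosome X from 99630001 to 100860000 (Pearson r = 0.908, Spearman rho = 0.868), on chromosome X from 97170001 to 98400000 (r = 0.905, rho = 0.886) and on chromosome 16 from 54120001 to 55350000 (r = 0.880, rho = 0.887). They were the highest of 1962 windows, whose median r was 0.188, and all points come from the same 15 lists. Without the 2 animals farthest from the median of the cluster, HCC 123390 and WT 130747, r was 0.857, 0.855 and 0.844 over 13 animals. In the first of these windows WT 134501 had 66.9 kb, WT 129296, 130747 and 129297 had 96.4, 95.3 and 82.9 kb, and WT 130748 had 48.0 kb. HCC 124711 had 23.7 kb there and HCC 123390 had 101 kb, the lowest and the highest of the 15 animals, as in the cluster. The windows were chosen for their high r over these animals, so that such likeness follows from the choice. The third window held at most 8.92 kb of peaks in any animal.

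**Figure D3:**
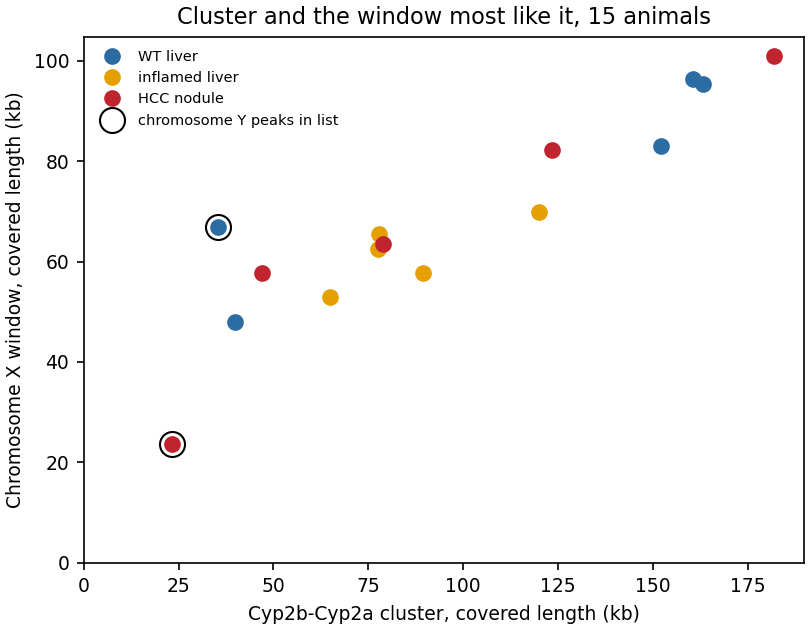
Covered length in kb of the cluster (horizontal) and of the window on chromosome X most like it (vertical), 1 point per animal, with rings around the 2 animals that have chromosome Y peaks. The points rise from HCC animal 124711 at 23.2 and 23.7 kb to HCC animal 123390 at 182 and 101 kb, with r = 0.908 over 15 animals.

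Along the cluster, 6 of the 64 regions (9.38%) were occupied in every one of the 15 animals, against 21.3% of all merged regions, and 11 (17.2%) were occupied in a single animal, against 22.9% of all. Their median width was 2837 bp, against 3510 bp for all regions, and together they spanned 261311 bp. Animals of all 3 groups had a peak in 34 of the 64 regions, WT livers alone in 5, HCC nodules alone in 10, and inflamed livers alone in 0. Of the 11 regions with a single animal, 5 were of HCC animal 123390. All 5 inflamed livers had a peak in 21 regions, against 7 regions for all 5 WT livers and 8 for all 5 HCC nodules. No inflamed liver had a peak in 26 regions. These counts by group were not made over all merged regions, so that they cannot be called particular to the cluster. Lists of inflamed livers were also longer, with a mean of 38368 peaks, against 28295 in WT livers and 33516 in HCC nodules. WT animals 129296, 130747 and 129297 had a peak in 41, 42 and 44 regions, and WT 134501 and 130748 in 9 and 17. The map of regions by animal shows the nearly blank lines of WT 134501 and HCC 124711 and the even pattern of the inflamed livers.

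**Figure D4:**
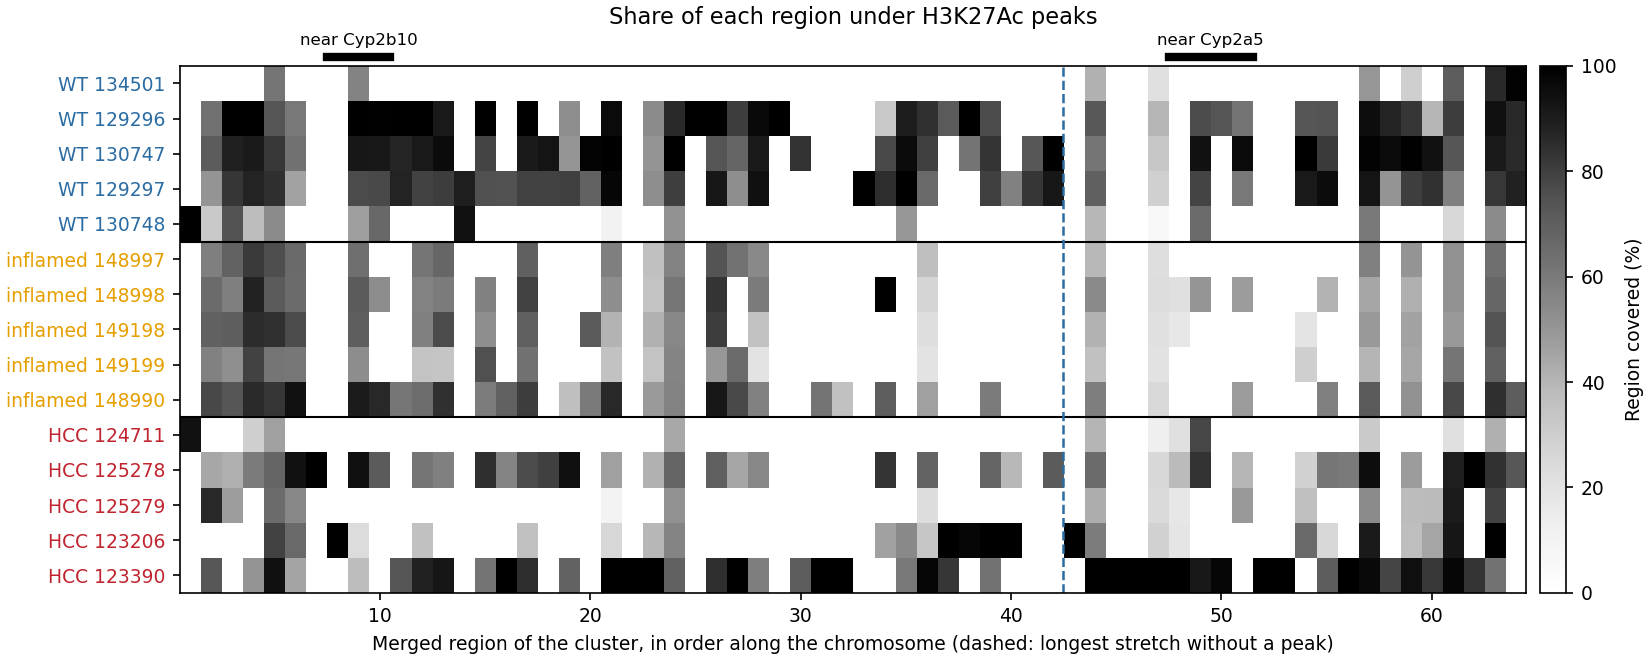
Percent of each merged region under peaks (white 0, black 100) in each of the 15 animals, with the 64 regions in order along chromosome 7, equal in width on the plot, and bars over the regions near Cyp2b10 and Cyp2a5. The dashed line is the longest stretch without a peak, with 42 regions before and 22 after it.

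A stretch of 334586 bp without a peak in any animal, from 27195585 to 27530170, divides the cluster into 42 regions on the side of Cyp2b10 and 22 on the side of Cyp2a5. The division was placed after the peaks were seen, so that both sides are described without a test. On the Cyp2b10 side, the covered length was 66.9 ± 46.6 kb in WT livers, 57.9 ± 16.04 kb in inflamed livers and 44.1 ± 37.2 kb in HCC nodules (SD, n = 5 each). On the Cyp2a5 side it was 43.3 ± 20.4 kb in WT livers, 28.0 ± 5.23 kb in inflamed livers and 46.7 ± 27.8 kb in HCC nodules (SD, n = 5 each). The Cyp2a5 side thus held 76.0%, 39.2%, 70.3%, 54.4% and 50.5% of the covered length of the cluster in HCC animals 124711, 125278, 125279, 123206 and 123390. In inflamed livers it held 29.8% to 36.7%, below all nodules. This concerns the proportion and not the length. HCC 124711 had 17.6 kb on the Cyp2a5 side, less than the 23.8 to 35.7 kb of inflamed livers, and 5.58 kb on the Cyp2b10 side. How often groups separate in this way in other windows was not counted. In WT livers it held 74.5% in 134501, the animal with the least before the stretch (9.05 kb), and 35.6% to 41.0% in the other 4.

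Near Cyp2b10, the CAR target, peaks were present in all WT and inflamed livers and were missing from 2 of 5 nodules. Region 9 (regions are numbered along the cluster) lay on chromosome 7 from 26671426 to 26684893 and was the widest region within 10 kb of the position of Cyp2b10. Peaks covered 7625, 13416, 12405, 10345 and 6363 bp of it in WT animals 134501, 129296, 130747, 129297 and 130748. In inflamed livers they covered 8606, 9614, 9445, 7113 and 12161 bp, within the range of WT livers. In HCC nodules they covered 0 bp in 124711, 12681 bp in 125278, 0 bp in 125279, 3128 bp in 123206 and 5031 bp in 123390, so that 4 of 5 nodules lay below every WT and inflamed liver and 1 was among the highest. Means were 10031 ± 3018 bp for WT, 9388 ± 1839 bp for inflamed livers and 4168 ± 5221 bp for nodules (SD, n = 5 each). Neither the difference of HCC nodules and inflamed livers passed the test (-5220 bp, exact permutation p = 0.0794, adjusted p = 0.530 over all regions tested) nor that of HCC nodules and WT livers (-5863 bp, exact permutation p = 0.0635, adjusted p = 0.746). The strongest peak of the region ranked at the score percentile 82.8 of its list in HCC 125278, at 28.7 and 36.3 in HCC 123206 and 123390, at 51.2 to 80.2 in inflamed livers, and at 23.8 in WT 134501 against 59.0 to 90.3 in the other WT livers.

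The neighbours of region 9 were occupied less often. Region 10, from 26685503 to 26689029, had a peak in 4 of 5 WT livers (2350 to 3513 bp, and 0 bp in 134501), 2 of 5 inflamed livers (1860 bp in 148998 and 3050 bp in 148990) and 1 of 5 nodules (2509 bp in 125278). No comparison passed there (exact permutation p = 0.143 for inflamed against WT livers, 0.722 for HCC nodules against inflamed livers and 0.0873 for HCC nodules against WT livers). Region 8, from 26668590 to 26671260, had a single peak of 2671 bp in HCC 123206.

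Near Cyp2a5, a region was occupied in every nodule and in no WT liver. Region 48, on chromosome 7 from 27612640 to 27620043, had peaks of 1535 bp in HCC 124711, 2818 bp in 125278, 1250 bp in 125279, 1340 bp in 123206 and 7404 bp in 123390. All 5 WT livers had 0 bp, and inflamed livers 148998 and 149198 had 1564 and 1285 bp and the other 3 had 0 bp. The nodules thus did not overlap the WT livers but overlapped the inflamed livers. The mean was 2869 ± 2613 bp in HCC nodules and 570 ± 786 bp in inflamed livers (SD, n = 5 each). The difference from WT livers had the smallest p of the design and did not pass the correction (2869 bp, exact permutation p = 0.00794, adjusted p = 0.448 over all regions tested), nor did that from inflamed livers (2300 bp, exact permutation p = 0.0556, adjusted p = 0.417). The promoter of Cyp2a5 is the one that shares 113 words of read length with Cyp2a4, and the part of reads placed at either gene was not tested. The peaks were weak in most nodules, with the strongest at the score percentiles 48.4, 22.5, 13.4, 1.54 and 58.8 in the same order, and at 8.03 and 8.17 in the inflamed livers. With the better 50% of each list by score the difference from WT livers was 1481 bp (exact permutation p = 1), and with lists of equal length it was 1788 bp (exact permutation p = 0.444), so that the occupation of every nodule rested on the lower part of the lists. Without HCC 123390 the difference was 1736 bp (exact permutation p = 0.00794, adjusted p = 0.364). The absence from WT livers also held only for region 48 as delimited here. Region 49 begins next to its end, and 4 of 5 WT livers had a peak there. With peaks up to 1000 bp apart merged, 0 regions of the cluster were occupied in every nodule and in no WT liver. The same held in bins of 1000 bp and where 50% of a region had to be covered.

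Region 49 adjoined region 48, from 27620097 to 27622972, and showed another pattern. It had a peak in 4 of 5 WT livers (2197, 2697, 2266 and 1885 bp, and 0 bp in 134501), in 1 of 5 inflamed livers (1440 bp in 148998) and in 3 of 5 nodules (2236 bp in 124711, 2393 bp in 125278 and 2632 bp in 123390). The difference of inflamed and WT livers, -1521 bp, did not pass the correction (exact permutation p = 0.0476, adjusted p = 0.153). Region 50, from 27623165 to 27625275, had a peak in WT 129296 (1557 bp) and HCC 123390 (2054 bp) only. Region 51, from 27627030 to 27629998, had a peak in 3 WT livers, 2 inflamed livers and 2 nodules, and no comparison of it passed (exact permutation p at least 0.246).

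**Figure D5:**
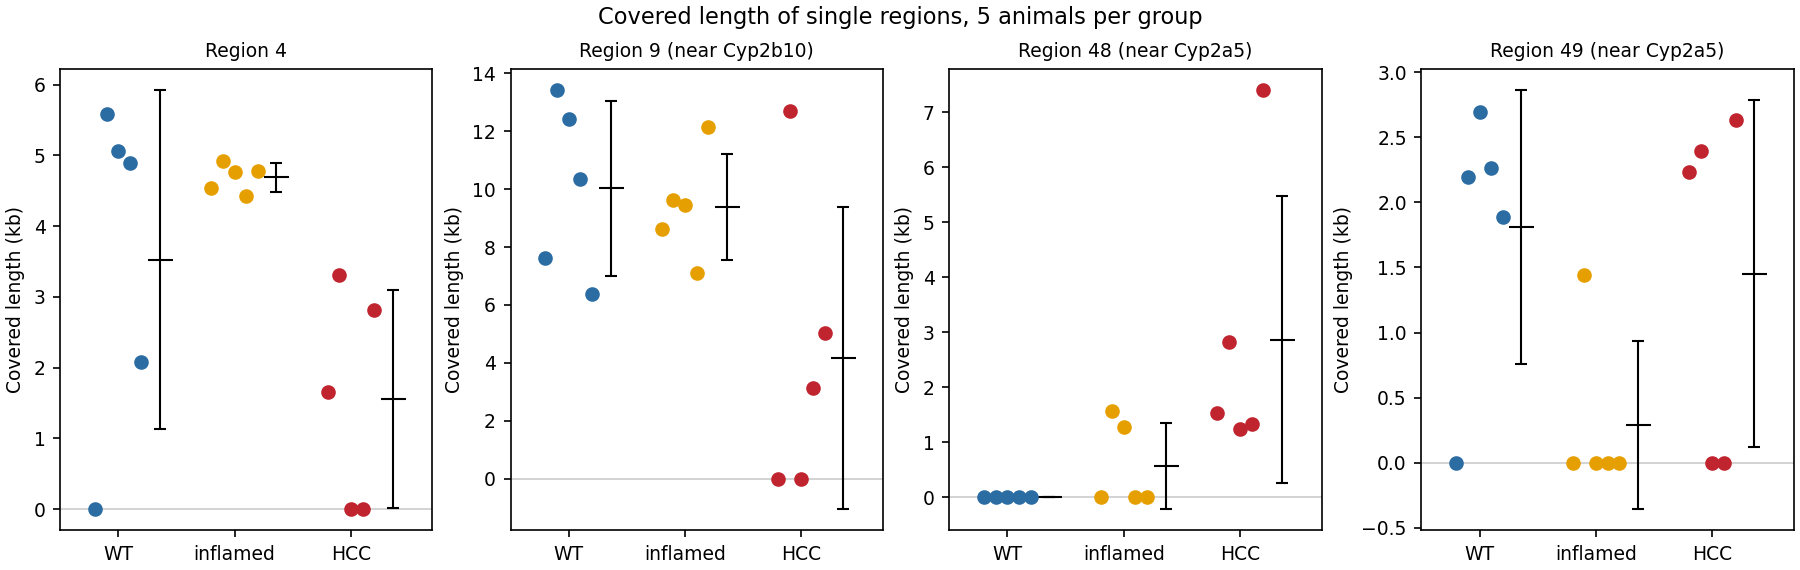
Covered length in kb of region 4, region 9 near Cyp2b10 and regions 48 and 49 near Cyp2a5, with 1 point per animal and a black bar for the mean ± SD of 5 animals. In region 4 all nodules lie below all inflamed livers, in region 48 all nodules lie above the WT livers at 0, and in regions 9 and 49 the groups overlap.

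Regions of the cluster in which groups did not overlap were counted against the whole genome. Their share was below that of all regions for inflamed against WT livers. It was near that of all regions for HCC nodules against inflamed livers (3.39%) and against WT livers (1.56%). Of the 54 regions with a peak in an inflamed or WT liver, 0 had animals of the groups that did not overlap, against 15.9% of all 44697 regions tested. At an unadjusted exact permutation p of at most 0.05 there were 4, 1 higher and 3 lower in inflamed livers, against 21.7% higher and 9.49% lower of all regions, and 0 passed the correction over all regions, which 7123 regions of the genome passed. The mean of inflamed livers was lower in 41 of the 54 regions (75.9%), against 42.4% of all regions, and the median difference was -413 bp, against 277 bp over all. Regions of the cluster share the same animals and are not independent. WT 129296, 130747 and 129297 had a peak in 41, 42 and 44 of them, and WT 134501 and 130748 in 9 and 17. Between HCC nodules and inflamed livers 2 of 59 regions did not overlap, both lower in nodules, against 4.66% of all regions in either direction and 3.76% lower, and the mean of nodules was lower in 20 of the 59 (33.9%, against 45.0% of all), with a median difference of 337 bp against 143 bp over all. Between HCC nodules and WT livers 1 of 64 regions did not overlap, against 1.77% of all in either direction and 0.755% higher in nodules. This was region 48. It was also the 1 region occupied throughout one group and absent from another, which held for 0.398% of all regions in this comparison. In the comparisons of inflamed with WT livers and of nodules with inflamed livers 0 regions of the cluster did so, against 6.65% and 1.44% of all. The mean of nodules was lower in 42 of the 64 regions (65.6%, against 35.8% of all), with a median difference of -226 bp, against 353 bp over all regions. The lowest adjusted p over the genome was 0.170 for HCC nodules against inflamed livers and 0.448 against WT livers, so that in these comparisons 0 regions of the genome passed the correction. At an unadjusted exact permutation p of at most 0.05, the cluster had 2 regions lower in nodules than in inflamed livers (9.58% of all regions), and 1 higher and 1 lower in nodules than in WT livers (3.99% and 3.59% of all).

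The pair of regions in which nodules lay below inflamed livers was at the Cyp2b10 end of the cluster. Region 4, from 26619238 to 26624816, was covered by 4545, 4921, 4765, 4423 and 4786 bp in inflamed livers 148997, 148998, 149198, 149199 and 148990. Nodules 124711, 125278, 125279, 123206 and 123390 had 1655, 3315, 0, 0 and 2818 bp there, all below the lowest inflamed liver. WT livers had 0 bp in 134501, 5579, 5065 and 4897 bp in 129296, 130747 and 129297, and 2081 bp in 130748. The difference was -3130 bp (exact permutation p = 0.00794, adjusted p = 0.170). With the better 50% of each list by score it was -1941 bp and the groups overlapped (exact permutation p = 0.444, adjusted p = 1). Region 3, from 26614792 to 26618634, had 2010 to 2818 bp in inflamed livers and 1609 and 1825 bp in nodules 125278 and 125279, with 0 bp in the other 3 nodules (difference -1791 bp, exact permutation p = 0.00794, adjusted p = 0.170). WT livers had 2854 to 3843 bp of region 3, except 0 bp in 134501.

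Region 6, from 26646127 to 26651107, was the region with the largest increase in inflamed livers. They had 3026 to 4678 bp, against 3014, 3150 and 2287 bp in WT 129296, 130747 and 129297 and 0 bp in WT 134501 and 130748 (difference 1920 bp, exact permutation p = 0.0159, adjusted p = 0.0846). With the better 50% of each list by score it was 3610 bp and the groups did not overlap (exact permutation p = 0.00794, adjusted p = 0.0608). Region 35, from 27091627 to 27094789, had no peak in any inflamed liver, with 2843, 3028, 3163 and 1569 bp in 4 WT livers, 0 bp in 134501, and 1722 and 1905 bp in HCC 123206 and 123390. The difference of inflamed and WT livers was -2121 bp (exact permutation p = 0.0476, adjusted p = 0.153). Without WT 134501, the only WT liver with 0 bp there, the groups separate by construction. The difference was then -2651 bp and passed (exact permutation p = 0.00794, adjusted p = 0.0499), the only 1 of 12 settings in which it did. With the better 50% of each list by score it was -1807 bp (exact permutation p = 0.167, adjusted p = 0.368). Region 54, from 27662613 to 27667809, had 3806, 5197 and 4748 bp in WT 129296, 130747 and 129297 and 0 bp in both other WT livers, against at most 1538 bp in inflamed livers (difference -2244 bp, exact permutation p = 0.167, adjusted p = 0.357). Region 21, from 26862635 to 26877326, showed the spread of the WT livers most plainly, with 14165, 14677 and 14333 bp in the same 3 animals, 0 bp in 134501 and 1534 bp in 130748. Inflamed livers had 5151 to 12705 bp of it and nodules 0 to 14672 bp, and the difference of HCC nodules and WT livers did not pass the test (-3604 bp, exact permutation p = 0.444, adjusted p = 1).

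Of the 6 regions that all 15 animals shared, 5 were on the Cyp2a5 side, and the 3 widest were region 44 (27562883 to 27574242), region 47 (27578732 to 27606047) and region 63 (27811096 to 27817848). Region 47 had 1433 to 10861 bp in WT livers, 5423 to 6743 bp in inflamed livers and 3537 to 7749 bp in 4 nodules, whereas a single peak of 27316 bp spanned the whole region in HCC 123390. The difference of HCC nodules and WT livers did not pass the test there (3422 bp, exact permutation p = 0.667, adjusted p = 1), and without HCC 123390 the difference was -803 bp. Region 44 had 4029 to 8226 bp in WT and inflamed livers and 4549 to 11360 bp in nodules, the highest again in HCC 123390. Region 63 had 3616 to 6367 bp in WT livers, 4320 to 5716 bp in inflamed livers and 2813 to 6753 bp in nodules, and no comparison of it passed (exact permutation p at least 0.262).

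Peaks of the cluster were of middle to low rank within the lists. The median score percentile of the peaks of an animal was 25.6 to 43.5 in WT livers, 36.6 to 46.9 in inflamed livers and 28.2 to 38.6 in HCC nodules, with means of 35.1 ± 7.44, 42.0 ± 4.13 and 33.1 ± 4.59 (SD, n = 5 each). The difference of HCC nodules and inflamed livers, -8.93 percentiles, did not pass the correction over windows (exact permutation p = 0.0159, adjusted p = 0.308), and weighted by the length of the peaks it was -0.0510. Inflamed livers were 6.98 percentiles above WT livers (exact permutation p = 0.135, adjusted p = 0.321), or 0.131 weighted by length, and the difference of HCC nodules and WT livers was -1.95, or 0.0800 weighted by length (exact permutation p = 0.627 and 0.984, adjusted p = 0.903 and 0.993). The groups overlapped in this rank, and did not in 10%, 2.82% and 1.18% of all windows for inflamed against WT livers, HCC nodules against inflamed livers and HCC nodules against WT livers.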

How the data were processed

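H3K27Ac ChIP-seq peak lists of 15 mice were analysed, 5 each for WT livers, inflamed livers and HCC nodules, with groups and animal numbers from the sample records. The IgG sample was not analysed here. The authors aligned reads to mm9 and called peaks per animal (Bowtie 0.12.7, MACS 1.4, per the submitters' processing notes) and deposited the peak positions with a score. This score is that of the peak caller, from 50 to 3233.06, with 9.52% to 24.5% of a list at the shared value of 3100, and was used only as a percentile within its list. The names of the lists carry the word input. The control used for each list, the read filters and the treatment of duplicate and multiply placed reads are not given in the sources used here. Depth is unknown and can change how many peaks a list holds.

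Peaks on chromosomes 1 to 19 and X were merged over all animals, and 1 bp of overlap with a peak made a region occupied. Means of covered length, peak number, share of an animal's own covered length and score percentile were tested between groups by exact permutation of the animals (two-sided, 252 assignments), with Benjamini-Hochberg adjustment over all windows of 1.23 Mb, or all merged regions, in which an animal of the comparison had a peak. Each p-value sets the difference of group means against all reassignments of the animals, with single mice as the units. A region was named when it lay within 10 kb of the stated positions of Cyp2b10 or Cyp2a5, when groups did not overlap in it, when it was among the 3 with the largest difference in a comparison, or when it was among the 3 widest shared by all 15 animals. Positions of the other genes in mm9 were not used here, and RefSeq (GRCm38.p6) gave only gene order and promoter sequences. The genes, the window and the named lists were chosen with earlier results of these data known. The tests were tried on simulated covered lengths of regions and windows with planted differences, and not on simulated peak lists. Alternatives were the 50% of peaks with the best scores in a list, the best 26375 peaks of every list, a window changed by 100000 bp on each side, merging within 1000 bp, bins of 1000 bp covered for 500 bp or more, occupation only where 50% or more of a region was covered, a peak in at least 4 of 5 against at most 1 of 5 animals, weighting percentiles by length and leaving out animals. Computation used Python 3.11.15, NumPy 2.4.6, SciPy 1.17.1 and matplotlib 3.10.9.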

Additional observations from a re-analysis of the deposited data

Results flagged for a closer look

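In 8 of 60 groups of 5 values, 1 animal lay far from the rest of its group. Chance gives about 1 in 20 where values vary continuously, which does not hold for 5 of the 8, in which the other 4 animals had 0 bp and any peak meets the criterion. The remaining 3 cannot be set against that rate, because regions were named partly for large differences. They include the neighbouring regions 47 and 48 of the same animal, HCC 123390. In WT livers, animal 134501 was far below the others in region 3, with 0 bp under peaks, and animal 129296 was the only one with a peak in region 50 (1557 bp). In inflamed livers, animal 148998 was the only one with a peak in region 49 (1440 bp). In HCC nodules, animal 123206 was the only one with a peak in region 8 (2671 bp) and animal 125278 the only one in region 10 (2509 bp). HCC animal 123390 stood far above the other nodules in region 47 (27316 bp) and region 48 (7404 bp) and was the only nodule with a peak in region 50 (2054 bp).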

How the results depend on the processing

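Covered length and share kept their direction for inflamed against WT livers and for HCC nodules against WT livers under all alternatives tried, and no window comparison passed the threshold under any. HCC nodules against inflamed livers reversed. With the top 50% of each list, the difference was -529 bp, -3.40 peaks and -60.4 bp per Mb. With the window extended it was -4198 bp and -34.2 bp per Mb, and with equal lists -16.5 bp per Mb. Leaving out 1 animal gave -17858 to 21805 bp, -4.80 to 5.95 peaks and -102 to 104 bp per Mb. For peak number, leaving out 1 animal gave -9.70 to 0.300 for inflamed against WT livers and -9.10 to 2.35 for HCC nodules against WT livers. The score percentile of HCC nodules against WT livers was 0.0800 weighted by length and -4.31 to 0.153 when 1 animal was left out.

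Regions that did not overlap between inflamed and WT livers (0) were 1 with the top 50%, 2 in the extended window, 0 to 3 without 1 animal (3 without WT 134501), 1 without WT 130748 and HCC 124711, and 3 without the animals with chromosome Y peaks, a setting chosen after seeing the data. For HCC nodules against inflamed livers (2) they were 1 with the top 50%, 0 in the shortened window, 5 in bins and 1 with merging. For HCC nodules against WT livers (1) they were 0 with the top 50%, equal lists, bins or merging, 1 to 2 without 1 animal, and 3 without either pair of animals. Regions in all of a group and none of the other were, for inflamed against WT livers (0), 1 with the top 50%, 0 to 1 without 1 animal, 1 without the chromosome Y animals and 3 at 4 of 5 against 1 of 5. For HCC nodules against inflamed livers (0) they were 1 with the top 50%, equal lists or 50% cover. For HCC nodules against WT livers (1) they were 0 with the top 50%, equal lists, bins, merging or 50% cover and 3 at 4 of 5 against 1 of 5. In region 47, HCC nodules against WT livers ranged from -803 to 5141 bp without 1 animal, the lowest without HCC 123390. Fewer animals or shorter lists change what can separate by construction, and the cause of the other changes was not tested.

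No paired analysis was possible because replicate numbers only name animals and nothing in the labels ties animals of different groups. Unknown depth and ties at 3100 limit what presence of a peak and its rank can show.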
